A study of Mus musculus with 22 samples.

Results

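The genes examined are the 5 subunits of the kainate receptor, Grik1 to Grik5, and the auxiliary proteins Neto1 and Neto2, chosen by name. These 7 genes are among 23033 genes that the table of 3′ RNA-seq counts holds after its transcripts were matched to gene symbols, and all 7 were found. The question was how their mRNA differs among hippocampus, cortex and cerebellum, and between circTulp4-deficient (CD) and wild-type mice. The 22 libraries come from 8 mice: 4 wild-type (numbers m162, m164, m240 and m244) and 4 CD (m118, m138, m190 and m242). Cortex was sequenced from all 8, hippocampus from 7 (wild-type 3, CD 4) and cerebellum from 7 (wild-type 4, CD 3). In CD mice, CRISPR-Cas9 replaced the splice acceptor that forms the circular RNA circTulp4, with a second change in the protospacer adjacent motif, on a C57BL/6 breeding background. The circle is reduced and not absent in this line, since a neighbouring cryptic acceptor still makes some of it, and the wild-type mice carry no edit. Age and sex of these mice are not given in the sources used here, and the labels name no treatment.

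Kainate receptors are tetrameric glutamate-gated cation channels. GluK1, GluK2 and GluK3 (Grik1, Grik2 and Grik3) form channels alone or together, whereas GluK4 and GluK5 (Grik4 and Grik5) bind glutamate with high affinity and reach the surface as functional channels only with one of the first group. Neto1 and Neto2 are single-pass membrane proteins with CUB domains that slow the kinetics of these channels. In the hippocampus kainate receptors are best known at the synapses of dentate mossy fibres on CA3 pyramidal cells, and in the cerebellum at granule and Golgi cells.

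Library totals ran from 2757684 to 8847481 counts, and levels are given in cpm, counts scaled to a common library total. A level of 5 cpm stands for 13.8 to 44.2 counts. Markers of cerebellar granule cells and cortical projection neurons followed the labelled tissue. Summed cpm of 5 cerebellar granule cell markers was 2185 to 3209 in cerebellum and 35.7 to 66.9 in the other regions. That of 5 cortical projection neuron markers was 502 to 610 in cortex and 25.4 to 348 elsewhere. The lists for hippocampal cells did not separate all regions. For 4 dentate granule cell markers the sum was 1247 to 1767 in hippocampus, 232 to 421 in cortex and 1416 to 1670 in cerebellum. For 3 CA1 pyramidal cell markers it was 134 to 341, 151 to 241 and 17.5 to 29.7 in the same order. Of the dentate markers, Calb1 was also listed as a Purkinje cell marker, and its part in the cerebellar sum was not tested. Choroid plexus markers ran from 127 to 8256 cpm among the hippocampus libraries. The library labelled CD hippocampus of mouse m118 stood apart from the other CD hippocampi in the edited gene: counts that separate the canonical Tulp4 transcript from a shorter one stood at 3.98 cpm there, above the 2.71 to 3.69 cpm of wild-type hippocampi, and at 0.424 to 0.573 cpm in the other 3 CD hippocampi. In cortex the same measure was 0.142 to 1.30 cpm in CD and 1.45 to 6.03 in wild-type libraries, and in cerebellum 0.600 to 2.62 and 3.12 to 13.7, without overlap. The measure is a difference in counts between these transcripts and rests on 1 to 72 counts in a library. Whether its reads come from linear Tulp4 mRNA or from the circle that the edit targets was not tested. It therefore does not test the edit itself. By RT-qPCR and Western blot, the paper found linear Tulp4 mRNA and protein unchanged in CD brain. The Tulp4 transcript with the most counts stood at 6.47 cpm in the m118 hippocampus. It stood at 3.78 to 5.98 in the other CD hippocampi and 6.10 to 9.57 in wild-type ones. On it the genotypes overlapped in cerebellum (CD 10.2 to 12.8, wild-type 8.82 to 26.0). In cortex they did not (4.53 to 6.99, 7.25 to 14.6). Genotype results in hippocampus are given with and without the m118 library, which stood apart on the first measure.

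Both Grik2 and Neto2 were highest in cerebellum, and the stretch before one annotated start of each is shown so that a reader can see the DNA that lies there. Each window covers the bases from 250 to 51 before the start, in RefSeq sequence of GRCm38.p6, read 5′ to 3′ on the minus strand, where both genes lie. Capitals mark GC boxes, the letters GGGCGG on either strand. Grik2 lies at chr10:49788805-49789004 and Neto2 at chr8:85700975-85701174.
Grik2: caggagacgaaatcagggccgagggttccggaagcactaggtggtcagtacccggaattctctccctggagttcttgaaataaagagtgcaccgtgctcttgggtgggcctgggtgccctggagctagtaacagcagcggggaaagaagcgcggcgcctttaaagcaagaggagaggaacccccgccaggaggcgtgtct
Neto2: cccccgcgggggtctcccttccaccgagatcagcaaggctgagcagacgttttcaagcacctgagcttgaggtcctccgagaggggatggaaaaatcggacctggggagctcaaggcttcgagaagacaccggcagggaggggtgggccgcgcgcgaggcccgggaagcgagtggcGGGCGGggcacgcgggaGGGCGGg
The Neto2 window holds 2 GC boxes and that of Grik2 holds 0, where 24.6% of 32851 promoter windows of this length hold at least 1. Their GC content is 69.0% for Neto2 and 59.0% for Grik2, both above the median window (51.5%). No exon annotated by GENCODE on the strand of either gene overlaps these stretches. The opposite strand carries an exon of Mir8109 in the Neto2 window and of Gm48123 in that of Grik2. The Grik2 stretch lies inside the span that RefSeq gives the gene (chr10:49093680-49790161), so it is not upstream of the whole gene. That of Neto2 lies outside the span of its gene (chr8:85636718-85700952). Over whole windows, from 250 bases before to 50 after a start, sequence was used for 6 starts of 5 genes. Grik3 had 7 GC boxes, Grik4, Grik5 and the Neto2 start shown had 2 each, and Grik2 and a second Neto2 start had 0, against 35.7% of all windows with at least 1. The motifs TATAAA (13.6% of all windows), CAGCTG (16.3%) and TCAGCACC (1.65%), searched on both strands, had no match in the 6, and no motif overlapped another. A match describes letters in a window and not a binding site.

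Regional levels fell into distinct patterns across the family. Neto1 and Neto2 ran in opposite directions, Grik4 was highest in hippocampus, Grik5 was higher in both forebrain regions than in cerebellum, and Grik2 followed the order cerebellum, hippocampus, cortex. Levels are TMM-scaled cpm of 1 transcript per gene. They are compared between regions for each gene and never between genes, since 3′ capture differs from gene to gene. In dissected tissue, fewer cells of a type and less RNA per cell cannot be told apart.

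**Figure D1:**
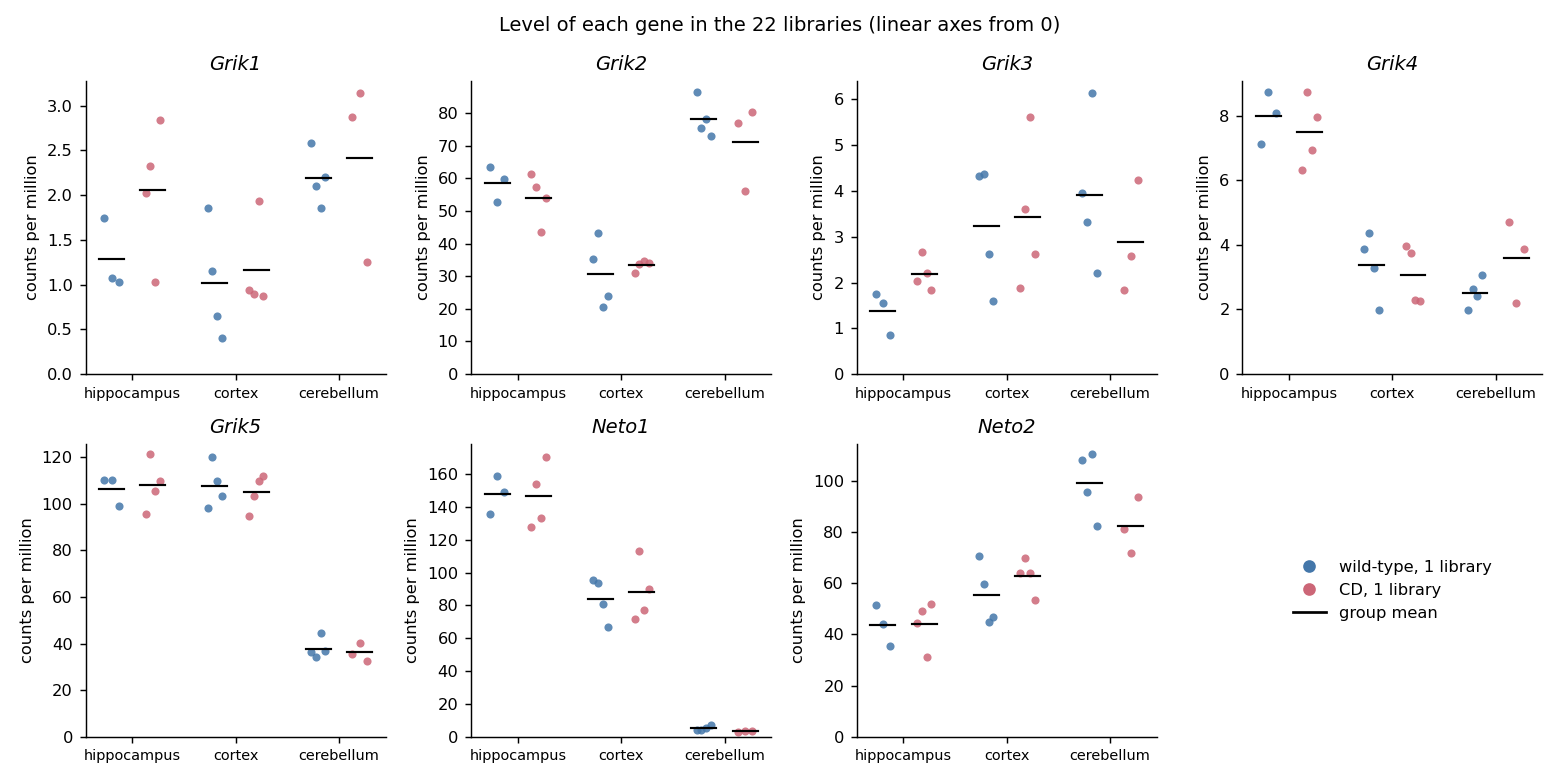
Level of each of the 7 genes (TMM-scaled cpm, linear axis from 0) in every library, by region and genotype, with the group mean as a bar. Neto1 sits between 2.67 and 7.30 in all 7 cerebellum libraries and at 66.9 or more in all others, Neto2 is highest in cerebellum, and CD and wild-type points overlap in most groups.

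Between hippocampus and cortex, Grik2, Grik4 and Neto1 were higher in hippocampus and Neto2 was lower, which makes 4 of the 6 members tested at an FDR below 0.01 (edgeR quasi-likelihood test, Benjamini-Hochberg over all genes). The background rate was 25.9% of 11133 genes. With the added demand of a 2-fold change 1 member was called, Grik4, against 8.42% of all genes. Between hippocampus and cerebellum 6 of 6 tested members differed (background 50.7%), 4 of them 2-fold (22.8%): Grik4, Grik5 and Neto1 were higher in hippocampus and Neto2 in cerebellum. Between cortex and cerebellum 4 of 6 differed (51.7%), with Grik5 and Neto1 more than 2-fold higher in cortex and Grik2 more than 2-fold higher in cerebellum (22.6% of all genes). Of these 6 members, Grik3 and Grik4 passed the filter of 5 cpm in 2 libraries through regions where they were high: Grik3 reached it in 1 cortex and 1 cerebellum library, and Grik4 in 7 hippocampus libraries and 1 cerebellum library. Nothing is read from the counts of members called, and both genes are also given without the filter. Grik1 stayed below the filter and was fitted without it.

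**Figure D2:**
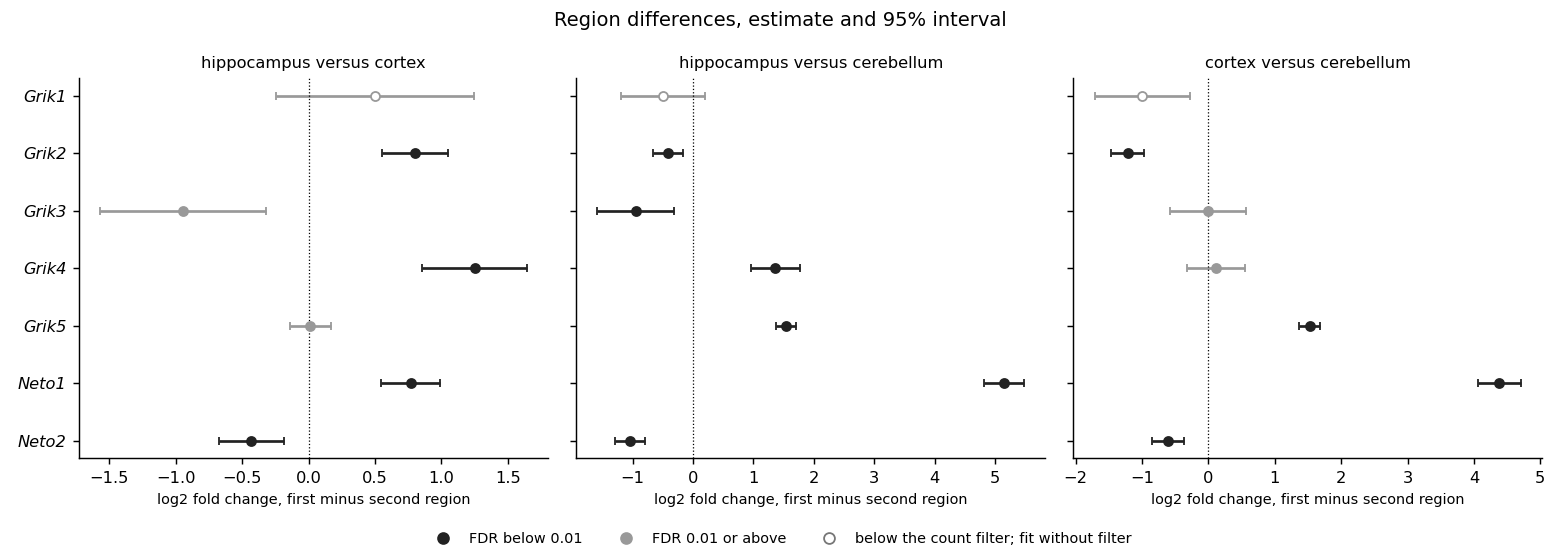
Estimated log2 fold change (x axis, first minus second region) of each gene for the 3 pairs of regions, with 95% intervals; filled black points have an FDR below 0.01 and open points mark Grik1, which was below the count filter. Each panel has its own x range: Neto1 reaches 5.15 for hippocampus against cerebellum, and the interval of Grik5 for hippocampus against cortex spans 0.

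Of the subunits that form channels on their own, Grik2, which encodes the GluK2 subunit of mossy fibre and cerebellar granule cell receptors, ran from 43.6 to 63.3 cpm (median 57.4) in 7 hippocampus libraries, from 20.7 to 43.2 (median 33.8) in 8 cortex libraries and from 56.1 to 86.5 (median 77.1) in 7 cerebellum libraries. No cortex library reached the lowest hippocampus or cerebellum library, whereas hippocampus and cerebellum overlapped. The level in cerebellum was 2.32-fold that in cortex (log2 difference of cortex minus cerebellum -1.21, SE 0.12; edgeR FDR 2.5e-09), and lower in cortex in 7 of 7 mice. Hippocampus exceeded cortex by 1.74-fold (log2 0.80, SE 0.12; FDR 7.0e-06), again in 7 of 7 mice. Cerebellum exceeded hippocampus by 1.33-fold (log2 -0.41, SE 0.12; FDR 0.0046) in 6 of 6 mice. That last call was lost, at FDRs of 0.0103 to 0.0187, without the hippocampus of mouse m190 or m240 or the cerebellum of mouse m118, m162 or m242, and it was not made in wild-type libraries alone (FDR 0.0734).

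Grik3, which encodes a subunit with low glutamate sensitivity, had few counts, 4 to 34 in a library. Hippocampus libraries lay between 0.860 and 2.68 cpm (median 1.85), cortex libraries between 1.59 and 5.61 (median 3.11) and cerebellum libraries between 1.85 and 6.14 (median 3.32). The groups overlapped in every pair. Grik3 was lower in hippocampus than in cerebellum by 0.95 on the log2 scale (SE 0.31; edgeR FDR 0.0091), in 5 of 6 mice. Without the filter the difference was -0.96 (FDR 0.0049). The call with the filter was lost, at FDRs of 0.0101 to 0.0597, without the hippocampus library of mouse m118, m162, m190, m240, m242 or m244, the cortex of m138 or m240, or the cerebellum of m162, m164, m190 or m242. Grik3 fell below the filter, and so was not tested, without the cortex of m190 or the cerebellum of m240, in wild-type libraries alone and with distinct transcripts summed. Against cortex the difference was of like size (log2 -0.94, SE 0.30) and just missed the threshold (FDR 0.0144), which it passed without the cortex library of mouse m118 (0.00759) or m244 (0.00813), with no filter on low counts (0.00784) and under DESeq2 (0.00932). The cortex minus cerebellum difference was -0.0015 with a 95% interval from -0.57 to 0.57.

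Grik1 had 1 to 20 counts in a library and never passed the filter. Its level was 0.398 to 1.93 cpm in cortex, 1.03 to 2.84 in hippocampus and 1.25 to 3.14 in cerebellum. All 7 mice with both regions had more Grik1 in cerebellum than in cortex (log2 difference of cortex minus cerebellum -0.99, SE 0.37), yet the edgeR FDR without a filter was 0.0183, above the threshold. Summing the distinct transcripts of the gene gave a log2 difference of -1.10 and an FDR of 9.7e-04. Those transcripts may share reads, as the top ones had 223 and 221 counts over all libraries. The sum can then count a read more than once, so its smaller FDR is not read as added precision. Hippocampus could not be placed between the others beyond the error (FDR 0.425 against cortex and 0.296 against cerebellum).

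Turning to the high-affinity subunits, Grik4 was highest in hippocampus. Every hippocampus library (6.33 to 8.73 cpm, median 7.96) lay above every cortex library (1.99 to 4.37, median 3.51) and every cerebellum library (1.98 to 4.72, median 2.62). The fold was 2.38 over cortex (log2 1.25, SE 0.19; edgeR FDR 7.9e-06) and 2.58 over cerebellum (log2 1.36, SE 0.20; FDR 1.4e-06), with the direction in 7 of 7 and 6 of 6 mice. Cortex and cerebellum overlapped widely, at a log2 difference of 0.12 with a 95% interval from -0.32 to 0.55. Counts ranged from 5 to 75 in a library. Without the filter on low counts the log2 differences were 1.24 (FDR 7.8e-07) and 1.35 (FDR 8.8e-08). Summed cpm of 3 CA3 pyramidal cell markers, all detected, was 14.7 to 26.8 in hippocampus, 5.98 to 17.0 in cortex and 3.14 to 5.77 in cerebellum; their part in the Grik4 difference was not tested.

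Grik5, the other high-affinity subunit, divided the forebrain from the cerebellum. Hippocampus (95.7 to 121 cpm, median 109.8) and cortex (94.8 to 119.8, median 106.5) covered the same range, and their log2 difference was 0.01 with a 95% interval from -0.14 to 0.17. Cerebellum libraries stood apart at 32.7 to 44.5 cpm (median 36.3). The level was 2.90-fold higher in hippocampus (log2 1.54, SE 0.08; edgeR FDR 1.7e-14) and 2.87-fold higher in cortex (log2 1.52, SE 0.08; FDR 1.2e-14), in all 6 and all 7 mice with the paired regions.

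Of the auxiliary proteins, Neto1, which also associates with NMDA receptors, showed the widest range of the 7 genes. Its cpm was 128 to 170 (median 149) in hippocampus, 66.9 to 113 (median 85.5) in cortex and 2.67 to 7.30 (median 3.84) in cerebellum. The 3 regions did not overlap. Hippocampus exceeded cerebellum 35.5-fold (log2 5.15, SE 0.16; edgeR FDR 1.5e-19) and cortex 1.70-fold (log2 0.77, SE 0.11; FDR 2.5e-06), and cortex exceeded cerebellum 20.8-fold (log2 4.38, SE 0.16; FDR 2.2e-18). Every mouse showed each direction. The transcript with the most Neto1 counts is a RefSeq model annotated as noncoding, XR_386371.3 (10945 counts over 22 libraries), where the coding model XM_006526482.3 has 10944 and the curated coding transcript NM_144946.4 has 1317. How reads shared between transcripts were counted is not given in the sources used here, so these counts cannot be assigned to one transcript. Before TMM scaling the curated transcript averaged 17.7 cpm in hippocampus, 10.3 in cortex and 0.384 in cerebellum, the same order. This transcript had only 14 counts over all cerebellum libraries, with at most 0.626 cpm in a library. It passed the filter only through hippocampus and cortex, where it was high, so its folds against cerebellum rest on few counts. Fitted in place of the model, it gave a log2 difference of 5.01 (95% interval 3.92 to 6.09; edgeR FDR 6.0e-12) for cortex against cerebellum, a 32.2-fold difference, 5.69 (4.61 to 6.77; FDR 2.7e-13) for hippocampus against cerebellum and 0.68 (0.26 to 1.10; FDR 0.0096) for hippocampus against cortex.

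Neto2 ran the other way. Its lowest, median and highest cpm were 31.3, 44.3 and 52.0 in hippocampus, 44.7, 61.9 and 70.4 in cortex, and 71.6, 93.8 and 110.5 in cerebellum. Cerebellum lay above all libraries of the other regions, whereas hippocampus and cortex overlapped. The cerebellar level was 2.06-fold that of hippocampus (log2 difference of hippocampus minus cerebellum -1.04, SE 0.12; edgeR FDR 6.2e-08) and 1.53-fold that of cortex (-0.61, SE 0.12; FDR 7.1e-05). Cortex exceeded hippocampus 1.35-fold (-0.43, SE 0.12; FDR 0.0062), in 7 of 7 mice. The 2-fold call against hippocampus was lost without the hippocampus of m190 (log2 -0.97) or m244 (-0.98) or the cerebellum of m242 (-0.99), at FDRs that still passed. The call between cortex and hippocampus was lost, at FDRs of 0.0105 to 0.0262, without the hippocampus of mouse m190, m240 or m244 or the cortex of m118, m138, m162, m164 or m190, and was not made in wild-type libraries alone (FDR 0.182). The 5 cerebellar granule cell markers, all detected, moved with the region as given above, and their part in the Grik2 and Neto2 levels was not tested.

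Libraries of a pair of regions did not overlap for 3 of 6 tested members between hippocampus and cortex (14% of all genes), 4 of 6 between hippocampus and cerebellum (35.9%) and 4 of 6 between cortex and cerebellum (32.9%). Under the other scaling, by DESeq2 size factors, no called member changed its direction, and the median log2 difference over all genes stayed within 0.02 of 0 under both scalings.

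Neto1 and Neto2 can join the same receptors, and GluK4 and GluK5 both serve as the high-affinity subunit, so their ratio within a library was compared between regions, with 2 counts added to each gene. The absolute size of a ratio depends on 3′ capture and on the transcript used, so only its change between regions is read. The log2 ratio of Neto1 to Neto2 was 1.75 ± 0.26 (SD, n = 7) in hippocampus, 0.54 ± 0.24 (n = 8) in cortex and -4.35 ± 0.44 (n = 7) in cerebellum. No regions overlapped. All 3 differences had the smallest p that the two-sided exact permutation test allows (0.000155 for hippocampus or cerebellum against cortex, 0.000583 for hippocampus against cerebellum), adjusted to 0.000233 and 0.000699 over 6 tests and called at 0.05. The shift from hippocampus to cerebellum was 6.10, or 6.09 ± 0.30 (SD) within the 6 mice with both regions. Within mice, the exact sign-flip test of the 3 differences gave adjusted p of 0.0234, 0.0375 and 0.0234 (hippocampus against cortex and cerebellum, then cortex against cerebellum), each from the smallest p that 7 or 6 mice allow (0.0156 or 0.0312).

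The log2 ratio of Grik4 to Grik5 took another order. It was -4.92 ± 0.40 (SD, n = 8) in cortex, below hippocampus (-3.75 ± 0.12, n = 7) and cerebellum (-3.54 ± 0.49, n = 7). Cortex differed from both (two-sided exact permutation p = 0.000155, the smallest possible, adjusted 0.000233), by 1.16 from hippocampus and 1.37 from cerebellum, and within mice both had an adjusted exact sign-flip p of 0.0234. Hippocampus and cerebellum did not differ beyond their spread (exact permutation p = 0.314): both genes were lower in cerebellum, as given above. Hippocampus libraries, moreover, kept within -3.88 to -3.56, while cerebellum ran from -4.01 to -2.82. Grik4 had 12 to 31 counts in a cerebellum library against 25 to 75 in a hippocampus library. The part of these lower counts in the wider spread was not tested.

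**Figure D3:**
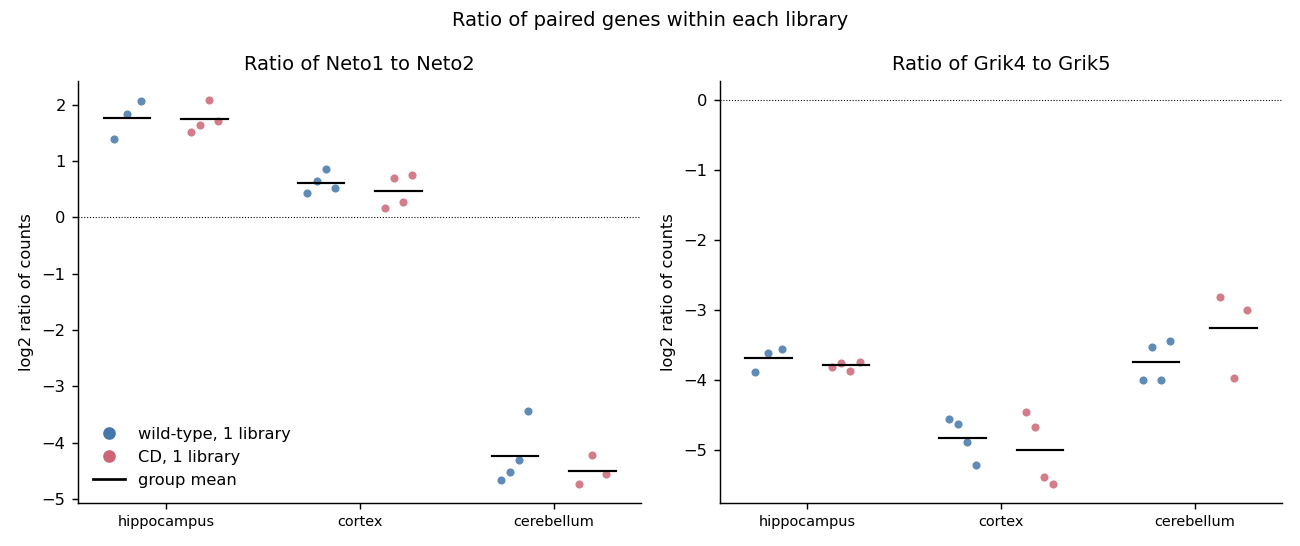
Log2 ratio of counts (y axis, 2 counts added to each gene) of Neto1 to Neto2 (left) and Grik4 to Grik5 (right) in every library by region and genotype, with group means as bars. The Neto1 to Neto2 ratio separates all 3 regions, from 1.75 in hippocampus to -4.35 in cerebellum, and the Grik4 to Grik5 ratio is lowest in cortex, at -4.92.

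In the comparison of CD with wild-type mice, no member passed an FDR of 0.01 in any region (edgeR within region). In hippocampus 5 members could be tested, and in cortex and cerebellum 4. The background was 0% of 9960 genes in hippocampus, 0% of 9924 in cortex and 0% of 10138 in cerebellum, although 420, 329 and 461 genes had an unadjusted p below 0.05. Of the tested members 0 had one. DESeq2 called 2, 1 and 0 genes over the whole table and no member. The paper, with edgeR and 1 library fewer in each group, reported a few dysregulated transcripts in hippocampus, 1 in cortex and 0 in cerebellum. Its rule was an FDR below 0.01 with a 2-fold change.

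**Figure D4:**
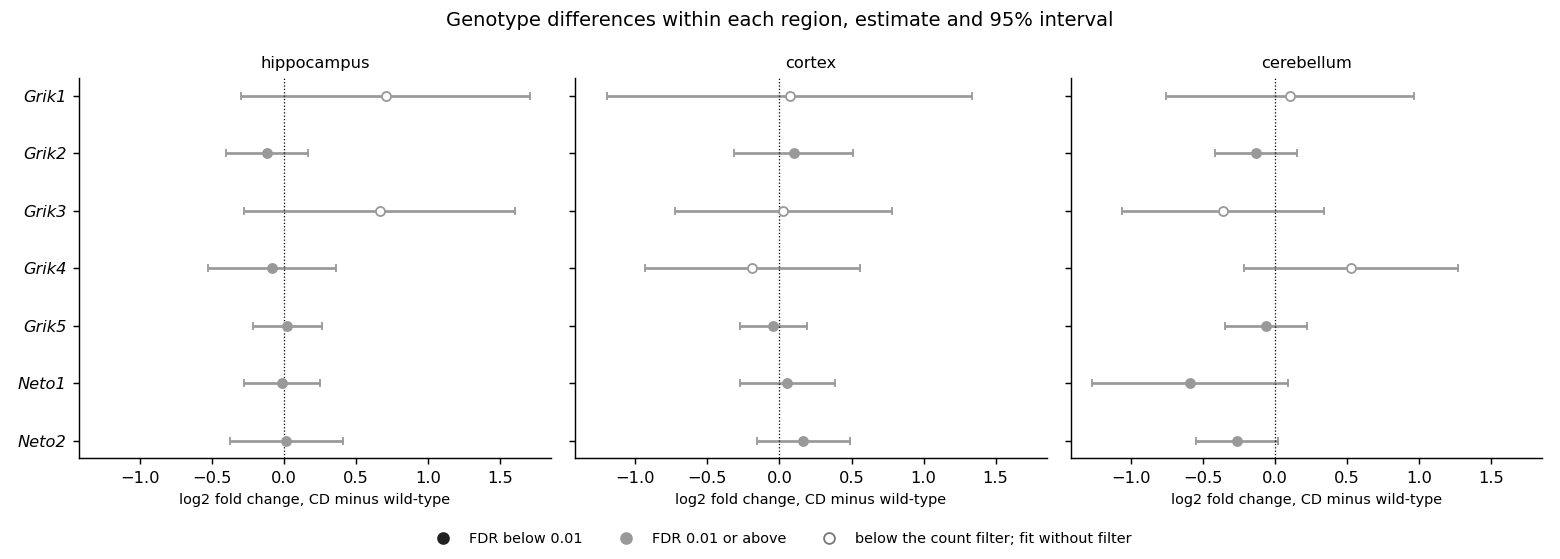
Estimated log2 fold change of CD minus wild-type mice (x axis) for each gene within each region, with 95% intervals; open points are genes below the count filter, fitted without it. All intervals span 0, and they are widest for Grik1 in cortex, from -1.20 to 1.34.

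In hippocampus, the 95% intervals of the 5 tested members all spanned 0. Grik5 differed by 0.03 on the log2 scale (CD minus wild-type; 95% interval -0.21 to 0.26), Neto1 by -0.01 (-0.28 to 0.25), Neto2 by 0.02 (-0.37 to 0.41), Grik2 by -0.12 (-0.40 to 0.17) and Grik4 by -0.08 (-0.52 to 0.36). Without the CD hippocampus of mouse m118 these values were 0.08 for Grik5, 0.05 for Neto1, 0.02 for Neto2, -0.17 for Grik2 and -0.01 for Grik4, all at an FDR of 0.998. With its curated transcript, Neto1 had a difference of 0.29 (-0.20 to 0.79; FDR 0.998) over all hippocampus libraries, above the interval of the transcript with the most counts. Grik3, too low for the filter, was 2.03, 2.68, 2.22 and 1.85 cpm in the 4 CD libraries (mice m118, m138, m190 and m242) and 1.74, 1.55 and 0.860 cpm in the 3 wild-type libraries (m162, m240 and m244). The CD libraries all lay above the wild-type ones, on 8 to 23 counts against 5 to 13. Its exact permutation p was 0.0286, the smallest possible with 4 against 3, which became 0.6 after adjustment over the 21 genes and regions, and the edgeR FDR without a filter was 0.904. Without mouse m118 the libraries still did not overlap (exact permutation p = 0.1, the smallest possible). No filtered member had non-overlapping libraries in hippocampus, where 5.41% of all genes did.

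In cortex, Neto2 had a difference of 0.16 (95% interval -0.16 to 0.49), Grik2 of 0.10 (-0.31 to 0.51), Neto1 of 0.05 (-0.28 to 0.38) and Grik5 of -0.04 (-0.28 to 0.19). No member separated the genotypes (2.55% of all genes did). Grik2 was 31.1, 33.7, 34.5 and 33.9 cpm in CD mice m118, m138, m190 and m242 and 35.1, 43.2, 20.7 and 23.9 cpm in wild-type mice m162, m164, m240 and m244. The wild-type libraries were thus the more spread, on both sides of the CD ones. This difference in spread was not tested, and the m244 library was the shallowest of the series, at 2757684 counts.

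In cerebellum both Neto genes had lower means in CD mice. Neto1 was 2.67, 3.51 and 3.75 cpm in CD mice m118, m190 and m242 and 3.95, 3.84, 5.21 and 7.30 cpm in wild-type mice m162, m164, m240 and m244. Its libraries did not overlap, and no other tested member separated the genotypes (5.35% of all genes did). Neto1 passed the filter in cerebellum through 2 wild-type libraries and 0 CD libraries, the group where it was higher, so nothing is read from that count. The log2 difference was -0.59 with a 95% interval from -1.27 to 0.09 (edgeR FDR 0.981), on 13 to 43 counts in a library. The exact permutation p was 0.143, above its smallest possible value of 0.0286. Neto2 was 81.2, 71.6 and 93.8 cpm in the same CD mice and 108, 95.7, 110.5 and 82.2 cpm in the wild-type mice. These groups overlapped, with a log2 difference of -0.26 (95% interval -0.55 to 0.02; edgeR FDR 0.981), an exact permutation p of 0.114 and the same smallest p. Grik2 and Grik5 differed by -0.13 (-0.42 to 0.15) and -0.06 (-0.35 to 0.22).

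Over the 3 regions together (limma-voom with the mouse as a random block) 0 members passed, and the estimates of the 6 members lay between -0.16 for Neto1 (95% interval -0.47 to 0.14) and 0.10 for Grik3 (-0.42 to 0.62), with all FDRs at 0.9996. The background was 0% of 11133 genes, 398 of which had an unadjusted p below 0.05. The genotype by region interaction, tested in edgeR at an FDR of 0.05, was called for 0 members (FDR 0.999, smallest p 0.137 for Neto1) and for 0% of all genes (437 with an unadjusted p below 0.05). The ratios of Neto1 to Neto2 and of Grik4 to Grik5 did not differ detectably between genotypes in any region either, with exact permutation p from 0.229 to 0.914 (adjusted 0.72 to 0.914 over 6 tests). Without the CD hippocampus of mouse m118 the estimates over the 3 regions lay between -0.14 for Neto1 and 0.11 for Grik3 (FDRs of 0.999) and the interaction was called for 0 members (FDR 0.9997). The hippocampal ratios then differed by 0.04 for Neto1 to Neto2 (exact permutation p = 0.9) and by -0.10 for Grik4 to Grik5 (exact permutation p = 0.5), where 0.1 is the smallest p possible.

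Genes whose pattern over the 6 group means was most like that of a member were taken as those with the smallest root-mean-square difference of centred log2 cpm. The measure describes likeness over 6 points that share libraries, and carries no test. For Neto1 they were Rasl10a (0.16), Grm5 (0.17) and Pou3f1 (0.19). Grm5, the metabotropic glutamate receptor mGluR5, averaged 158 cpm in hippocampus, 102 in cortex and 4.21 in cerebellum. For Neto2 they were Mast1, Sh2b3 and Dlc1 (each 0.06), with Mast1, a kinase of the microtubule-associated family, at 50.6, 62.6 and 103 cpm in the same order of regions. Grik2 was closest to Mctp1, Cand2 and Ak4 (0.08 to 0.09) and Grik4 to Aspdh, Sema3e and Tmem98 (0.11 to 0.12). Sema3e, a secreted guidance cue, averaged 11.7, 5.38 and 5.38 cpm. Grik5 had the closest neighbours of all, Gpm6a (0.03), Fam171b and Pnmal1 (both 0.05), and Gpm6a, a neuronal membrane glycoprotein, averaged 2621, 2493 and 893 cpm.

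Of 25 proteins that bind, traffic, anchor or modify kainate receptors, 24 were tested. Between hippocampus and cortex 5 were higher in hippocampus and 9 in cortex at an FDR below 0.01 (median log2 difference -0.07, against 0.01 over all genes, of which 25.9% were called). Between hippocampus and cerebellum 9 were higher and 8 lower in hippocampus (median -0.03 against -0.02, with 50.7% of all genes called), and between cortex and cerebellum 11 were higher and 5 lower in cortex (median 0.23 against -0.02, with 51.7% of all genes called). The widest ranges belonged to C1ql2 and C1ql3, secreted C1q-like proteins of mossy fibre terminals that recruit kainate receptors. C1ql2 averaged 754 cpm in hippocampus, 22.4 in cortex and 11.6 in cerebellum (log2 5.07, SE 0.25, against cortex; edgeR FDR 1.2e-13), and it is itself one of the 4 dentate granule cell markers used here. C1ql3 was 57.3, 42.9 and 2.46 cpm and was lower in cerebellum (log2 4.52, SE 0.22, hippocampus minus cerebellum; FDR 3.3e-16) while hippocampus against cortex missed the threshold (FDR 0.0206). Prkca, a protein kinase C that phosphorylates the receptors, was 152, 107 and 35.2 cpm (log2 2.12, SE 0.09, hippocampus minus cerebellum; FDR 4.8e-16). Kif17, a kinesin motor, was 2.78, 5.22 and 1.13 cpm (log2 2.19, SE 0.25, cortex minus cerebellum; FDR 1.3e-08). Of the scaffolds with PDZ domains, Grip1 was lowest in cerebellum (19.7, 15.8 and 5.66 cpm; FDR 2.1e-05 against hippocampus) and Grip2 highest in cortex (1.91, 6.59 and 2.72 cpm; FDR 1.1e-05 against hippocampus). Kif17 and Grip2 passed the filter only through cortex libraries, 4 and 6 of them, where they were high. C1ql3 likewise reached the filter level in 7 hippocampus and 8 cortex libraries, where it was high, and in 0 cerebellum libraries.

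The AMPA and NMDA receptor genes also had members on both sides of the comparison of hippocampus with cerebellum: 3 of 4 AMPA receptor genes were higher in hippocampus and 1 in cerebellum, as were 2 and 1 of 5 tested NMDA receptor genes. Of all genes 50.7% were called in this comparison. Among the AMPA receptor subunits, Gria2 was more than 2-fold higher in hippocampus than in cerebellum (log2 1.18, SE 0.11; edgeR FDR 6.5e-10) and Gria1 likewise (1.59, SE 0.14; FDR 3.7e-10), while Gria4 was lower (-3.36, SE 0.08; FDR 2.6e-20). Gria3 exceeded cerebellum in cortex (log2 1.03, SE 0.09; FDR 8.1e-10). For the NMDA receptor, Grin2b was 284, 252 and 16.8 cpm in hippocampus, cortex and cerebellum (log2 4.08, SE 0.14, hippocampus minus cerebellum; FDR 6.7e-18). Grin2c showed the reverse, at 10.7, 10.4 and 77.0 cpm (log2 -2.83, SE 0.11; FDR 3.9e-17), and Grin2a had 4.68 cpm in hippocampus against 1.07 in cerebellum (log2 2.00, SE 0.49; FDR 6.2e-04), having passed the filter only through 3 hippocampus libraries. Grid1, a delta receptor subunit, was higher in hippocampus than in cerebellum (log2 1.22, SE 0.17; edgeR FDR 1.1e-06).

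**Figure D5:**
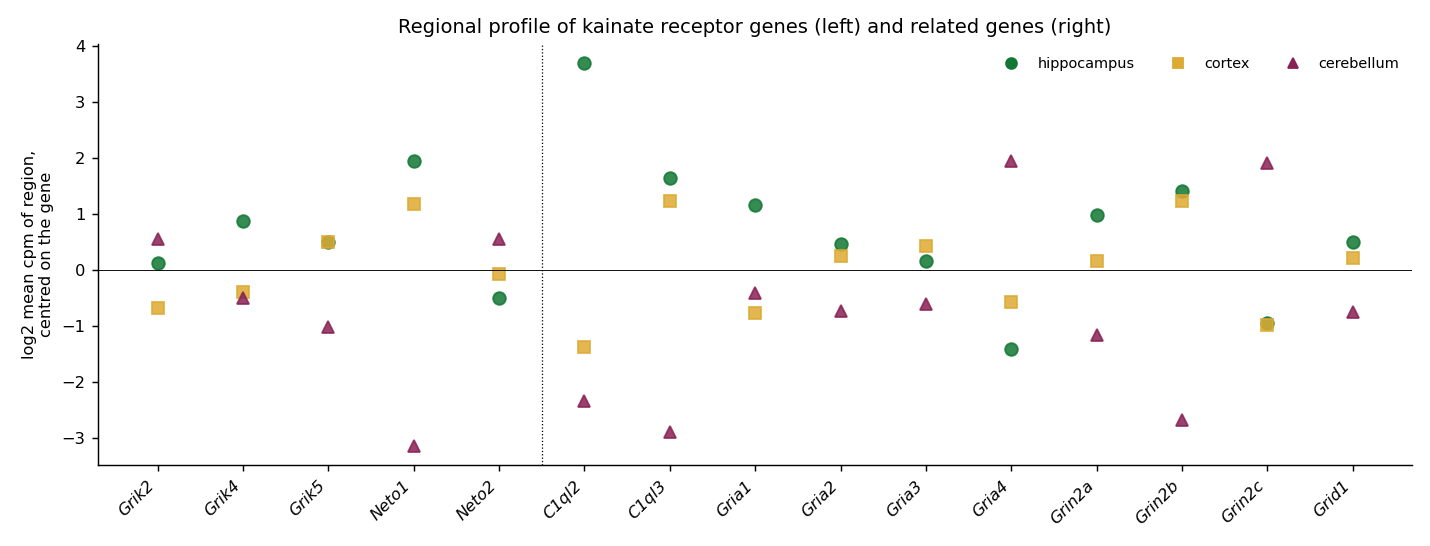
Mean level of each region on a log2 scale, centred on the gene (y axis), for the 5 kainate receptor and Neto genes with a 2-fold difference between regions (left of the dotted line) and for related genes (right). Neto1 in cerebellum lies at the bottom of its group, with C1ql3 and Grin2b, and Neto2 and Grik2 have the cerebellum on top, as Gria4 and Grin2c do.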

How the data were processed

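CelSeq2 3′ RNA-seq libraries were made from the hippocampus, cortex and cerebellum of 8 mice. Per the labels and methods, STAR (genome mm10) and the End Sequence Analysis Toolkit gave the raw counts per RefSeq transcript that the authors deposited without normalization. Versions, collapsing of molecular identifiers and strand handling are not given in the sources used here, so precision rests on the spread between libraries. The series' design text counts 1 library fewer in each group, and all 22 were used. Of 85964 transcripts, 69280 (80.6%) were matched to 23033 genes by accession without version, and unmatched transcripts, with 18.6% of the counts, were left out. Each gene was represented by the transcript with the highest total. Library totals were 2757684 to 8847481.

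Genes with at least 5 cpm in 2 libraries were kept (the 22 libraries for regions, those of a region for genotypes), scaled by TMM and tested with edgeR 4.0.16 (glmQLFit and glmQLFTest, R 4.3.3) at an FDR below 0.01, with a fold above 2 or below 0.5 where stated. Standard errors and 95% intervals are Wald values from the quasi-likelihood dispersion. limma 3.58.1 (voom), DESeq2 1.42.0 and exact permutation tests (two-sided, Benjamini-Hochberg) were also used. The edgeR tests were run on counts simulated from the fitted model. That simulation had no mouse effect and known changes only in genes with higher counts. It therefore does not check the pairing of mice or genes with few counts, such as Grik1 and Grik3. Genotype, region and mouse came from the labels. The mouse number pairs regions within an animal, and the mean correlation of deviations was 0.083 for hippocampus with cortex, 0.047 for hippocampus with cerebellum and -0.0036 for cortex with cerebellum. Genotypes share no mouse. Named genes were the 7 members, the 3 genes most like each member with a 2-fold regional difference, and up to 6 genes per list past FDR 0.01 and 2-fold. The members and lists were chosen with earlier results of these data known. Alternatives were another scaling, no filter, DESeq2, summed transcripts, each library left out, the mouse as a block, and wild-type libraries only. The curated transcript of each member, and the genotype tests over the regions without the CD hippocampus of mouse m118, were added after the data were seen. One gene of the lists is not reported here.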

Additional observations from a re-analysis of the deposited data

Results flagged for a closer look

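One of the 36 groups of 4 libraries checked (7 genes and 2 ratios in 4 groups) had a library far from the other 3. Grik1 was 1.93 cpm in the CD cortex of mouse m190, where the other CD cortices lay between 0.876 and 0.942 cpm. The value rests on 11 counts. About 1 in 20 such groups is expected to stand out by chance, or 1.8 of 36.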

How the results depend on the processing

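At an FDR below 0.01, the regional calls of Grik4, Grik5 and Neto1, of Grik2 against cortex and of Neto2 against cerebellum held under every alternative run. Over 21 regional results and 513 values, 27 lost a call, 5 gained one and 0 reversed; the losses concern Grik3 and Grik2 between hippocampus and cerebellum and Neto2 between hippocampus and cortex, and the cause was not tested. The number of members with a 2-fold difference between hippocampus and cortex ranged from 1 to 2 when single libraries were left out, through Grik3 without the cortex of mouse m118 or m244. For hippocampus against cerebellum the number ranged from 3, losing Neto2, to 5. The gain was Grik3 without the hippocampus of m138 or the cerebellum of m118 or m244. For cortex against cerebellum the number was 3, or 4 with transcripts summed, gaining Grik1. That sum may count shared reads more than once. With the mouse as a block, the numbers of members called stayed 4, 6 and 4 for hippocampus against cortex, hippocampus against cerebellum and cortex against cerebellum, and the calls of the ratios at 0.05 held within mice, at adjusted p of 0.0234 to 0.0375, each from the smallest p possible. In wild-type libraries alone 3, 4 and 4 members were called. Genotype results gave no call in 196 values, 19 of which changed sign: 17 of them lay between -0.11 and 0.05, and 2 were Neto1 with its curated transcript, at 0.29 in hippocampus and -0.02 in cortex. Without the mouse block, the genotype difference over the regions was called for 0 members. Precision for Grik1, Grik3 and Grik4 is limited by depth, at 1 to 75 counts in a library.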
